A study of Macaca mulatta with 13 samples.

Results

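The genes described here belong to the unfolded protein response and the integrated stress response, and were measured in thigh muscle of aged male rhesus monkeys (Macaca mulatta) on a control or a calorie restricted (CR) diet. They were chosen by symbol: 10 genes were named, and every probe set that the platform annotation ties to exactly 1 of those symbols was taken. Of the 10, 8 genes had a probe set (ERN1, EIF2AK3, ATF6, XBP1, ATF4, DDIT3, HERPUD1 and PDIA4), with 12 probe sets in all, among 24956 probe sets with 1 symbol for 14132 genes on the array. CALR, the ER lectin chaperone calreticulin, and PPP1R15A, the phosphatase subunit GADD34, had no probe set under their names and were not analysed here. The list was drawn up with earlier results on the diet difference in these arrays in view, DDIT3 among them, so the diet differences of the members are a description and support nothing.

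The muscle was the vastus lateralis. All 13 monkeys were male. The 5 controls were 27 to 30 years old, and the 8 restricted animals, 27 to 32 years old, had been restricted for 18.5 years. One array was made per monkey, and the labels name no genotype, strain, pool or agent other than the diet. Ages are known by group only.

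The unfolded protein response is the reaction of a cell to misfolded protein in the endoplasmic reticulum (ER). It starts from 3 sensors in the ER membrane: ERN1 (IRE1), a kinase and nuclease that splices XBP1 mRNA; EIF2AK3 (PERK), a kinase of the translation factor eIF2; and ATF6, a transcription factor released by proteolysis. Phosphorylated eIF2 lowers general translation but favours translation of ATF4, and this branch, shared with kinases that sense other stresses, is called the integrated stress response. ATF4 induces DDIT3 (CHOP), while ATF6 and spliced XBP1 induce ER chaperones and degradation factors. Much of this control acts on splicing, cleavage, phosphorylation and translation, which a transcript signal does not show. Skeletal muscle has a large ER derivative, the sarcoplasmic reticulum, that stores calcium.

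Signals are MAS5 intensities scaled alike on every array, given on the log2 scale, where a difference of 1 is a doubling. A probe set was tested if its mean signal was among the brighter 50%, at 107 or above. This left 26383 probe sets, among them 11 of the 12 member probe sets in 7 genes. Between any pair of arrays, r across these probe sets lay from 0.834 to 0.940 (probe sets are not independent replicates). The tissue label was checked with fixed marker genes: the 6 muscle fibre markers with a probe set had mean signals from 2444 to 119190. In bulk muscle RNA, fewer cells of a type and less RNA per cell cannot be told apart.

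Among the members, DDIT3, the gene for the stress-induced factor CHOP, stood 1.37 times as high in CR as in controls by mean log2 signal, with 7 of 8 CR animals above every control. Its inducer ATF4 stood 1.27 times and the degradation factor HERPUD1 1.22 times as high, each with 7 of 8 CR animals above the control mean. The sensors EIF2AK3 and ATF6, the factor XBP1 and the disulfide isomerase PDIA4 had differences within 1 SE of 0 for their brightest probe sets. The sensor ERN1 was below the limit for testing, with a difference of 0.91 ± 0.68 (SE, log2) in a fit without that limit. No tested member probe set passed limma's moderated test with Benjamini-Hochberg adjustment, where 0% of all probe sets tested were called. The adjusted p of each of the 11 tested member probe sets was 0.999. At an unadjusted p under 0.05, 1 of 11 member probe sets was called, where 2.43% of all probe sets were. That probe set, of DDIT3, was higher in CR, where 1.25% of all were, and 0 members were lower, where 1.18% were. Over all probe sets these were 330 higher and 311 lower, against 241 and 340 with each array centred on its median. The groups overlapped for each of the 12 member probe sets, and were apart for 0.072% of all probe sets tested. The median difference over the 7 tested genes, each by its brightest probe set, was 0.10 on the log2 scale, against -0.0016 over 9812 genes. It moved to 0.020 without control replicate 5, 0.042 without control replicate 1, 0.17 without control replicate 3 and 0.21 without control replicate 4, and to 0.25 with RNA quality ratios as covariates. Of these 7 genes, 4 had a positive and 3 a negative difference, against 4887 positive and 4925 negative over all genes.

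**Figure D1:**
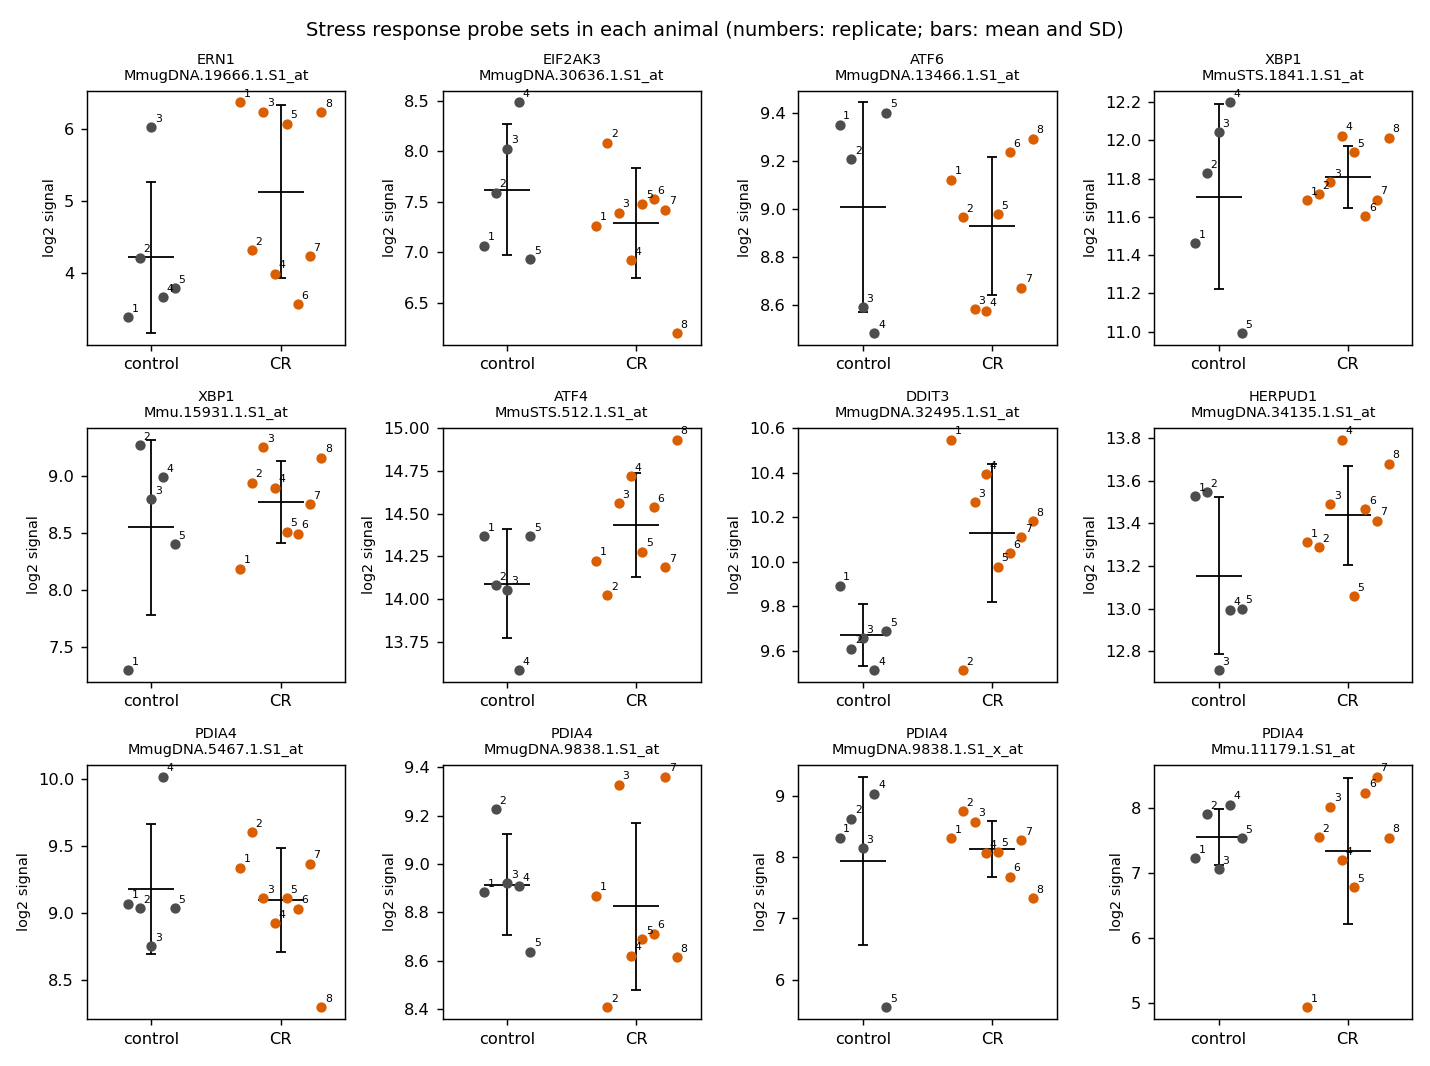
Log2 signal (vertical axes) of each of the 12 member probe sets in the 5 control animals (grey) and the 8 CR animals (orange); small numbers give the replicate, and black bars the group mean and SD. DDIT3 shows 7 of 8 CR animals above every control, while the other probe sets overlap more widely.

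The sensors overlapped widely between the diets. EIF2AK3 (probe set MmugDNA.30636.1.S1_at) had a log2 signal of 7.07, 7.59, 8.02, 8.48 and 6.93 in control replicates 1 to 5, and from 6.20 to 8.09 with a median of 7.41 in CR. Control replicate 4 was the highest and CR replicate 8 the lowest of the 13 animals. The difference was -0.33 ± 0.33 (SE, log2, limma's adjusted p = 0.999). It was -0.12 without control replicate 4, -0.18 without CR replicate 8, -0.50 without control replicate 5, and 0.038 without control replicate 4 and CR replicate 8 together.

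ATF6 (MmugDNA.13466.1.S1_at) had a log2 signal of 9.35, 9.21, 8.59, 8.49 and 9.40 in control replicates 1 to 5, and from 8.58 to 9.29 with a median of 8.97 in CR. Both diets held animals near 8.6 and others above 9, and the difference was -0.079 ± 0.21 (SE, log2), with an unadjusted interval from -0.52 to 0.36. Leaving out control replicate 1 gave 0.0070, leaving out control replicate 5 gave 0.020, and leaving out control replicate 4 gave -0.21. ERN1 was measured by a dim probe set (MmugDNA.19666.1.S1_at) with a mean signal of 27.5, below the limit for testing. Its log2 signal was 3.40, 4.22, 6.02, 3.67 and 3.80 in control replicates 1 to 5, and from 3.57 to 6.37 with a median of 5.20 in CR. Its values were spread over 2.97 log2 units with high and low animals in both diets. In a fit without that limit its difference was 0.91 ± 0.68 (SE, log2), with an unadjusted 95% interval from -0.51 to 2.33.

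XBP1 encodes the transcription factor downstream of ERN1. Whether its probe sets separate the spliced from the unspliced mRNA was not tested. The brighter one (MmuSTS.1841.1.S1_at) had a log2 signal of 11.46, 11.83, 12.04, 12.20 and 10.99 in control replicates 1 to 5, and from 11.60 to 12.02 with a median of 11.75 in CR. The 5 controls enclosed the 8 CR animals on both sides, with an SD of 0.48 in controls and 0.16 in CR. Its difference was 0.10 ± 0.18 (SE, log2), or 0.23 without control replicate 4 and -0.076 when control replicate 5 was left out. The dimmer probe set differed by 0.22 ± 0.29, with control replicate 1 at 7.30 and the other animals between 8.19 and 9.27. Without control replicate 1 that difference was -0.090.

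ATF4 (MmuSTS.512.1.S1_at) encodes the transcription factor at the centre of the integrated stress response. Its log2 signal in controls was 14.37, 14.08, 14.05, 13.58 and 14.37 for replicates 1 to 5. In CR it was 14.22, 14.02, 14.56, 14.72, 14.28, 14.54, 14.19 and 14.93 for replicates 1 to 8. Control replicate 4 lay below all other animals, 4 of 8 CR animals lay above the highest control, and the remaining CR animals lay among the controls. The difference was 0.34 ± 0.18 (SE, log2), with an unadjusted 95% interval from -0.040 to 0.72 (limma's adjusted p = 0.999). Leaving out control replicate 4 lowered it to 0.21, and leaving out CR replicate 8 as well, the animal with the highest signal, to 0.14.

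DDIT3 (MmugDNA.32495.1.S1_at) encodes CHOP, a transcription factor that ATF4 induces and that promotes cell death when ER stress persists. Its log2 signal in controls was 9.89, 9.61, 9.66, 9.51 and 9.69 for replicates 1 to 5. In CR it was 10.55, 9.51, 10.27, 10.39, 9.98, 10.04, 10.11 and 10.18 for replicates 1 to 8. The controls lay close together, 7 of 8 CR animals lay above the highest control, and CR replicate 2 lay among the lowest controls. The CR minus control difference was 0.46 ± 0.17 (SE, log2), a signal 1.37 times the control level with an unadjusted 95% interval from 1.07 to 1.76 (limma's adjusted p = 0.999). The SD was 0.14 in controls (n = 5) and 0.31 in CR (n = 8). With each animal left out in turn the difference ran from 0.40 without CR replicate 1 to 0.55 without CR replicate 2.

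**Figure D2:**
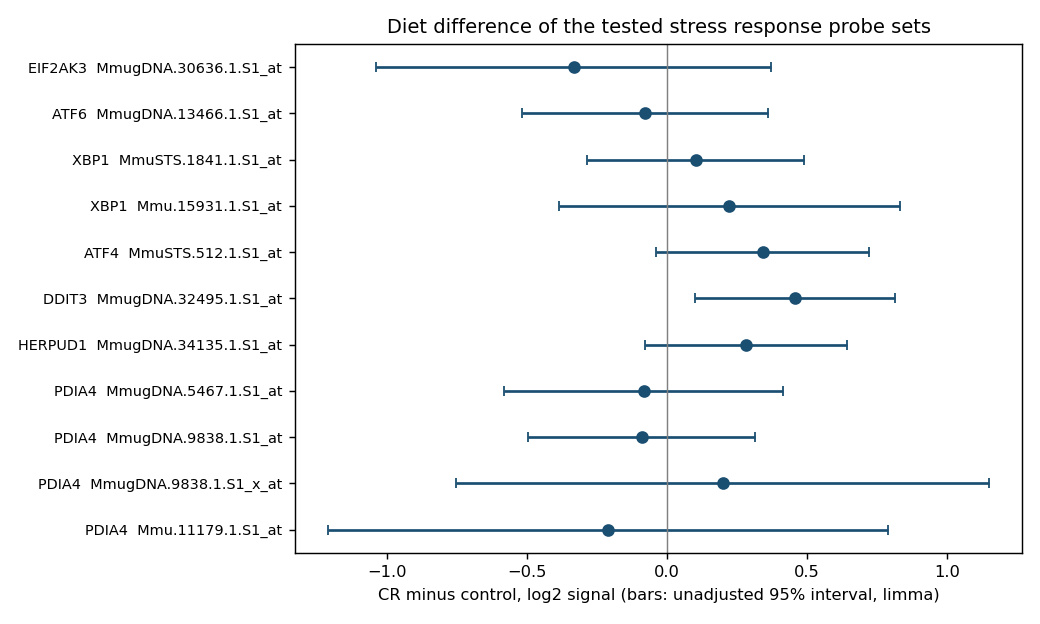
CR minus control difference in log2 signal (horizontal axis) for the 11 tested member probe sets, with unadjusted 95% intervals from limma. The interval of DDIT3 lies above 0, and the intervals of the other 10 probe sets include 0.

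HERPUD1 (MmugDNA.34135.1.S1_at) encodes an ER membrane protein of ER-associated degradation, the route that returns misfolded proteins to the proteasome. Its log2 signal was 13.53, 13.54, 12.71, 12.99 and 12.9995 in control replicates 1 to 5. In CR it was 13.31, 13.29, 13.49, 13.79, 13.06, 13.46, 13.41 and 13.68 for replicates 1 to 8. Control replicates 3, 4 and 5 lay below every CR animal, whereas control replicates 1 and 2 lay above 6 of 8 CR animals. The difference was 0.28 ± 0.17 (SE, log2, limma's adjusted p = 0.999), and 0.17 without control replicate 3.

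PDIA4 encodes a protein disulfide isomerase of the ER lumen, and 4 probe sets measured it. The brightest (MmugDNA.5467.1.S1_at) had a log2 signal of 9.07, 9.04, 8.75, 10.02 and 9.04 in control replicates 1 to 5, and from 8.30 to 9.60 with a median of 9.11 in CR. Control replicate 4 stood highest, CR replicate 8 stood lowest, and the other animals were mixed. Its difference was -0.084 ± 0.24 (SE, log2), but 0.13 without control replicate 4, 0.031 without CR replicate 8 and 0.24 without both. The other probe sets differed by -0.090 ± 0.19, 0.20 ± 0.45 and -0.21 ± 0.47, so they did not share a direction. For the first of these, leaving out control replicate 2 gave -0.012 and leaving out CR replicate 7 gave -0.17. The probe sets at -0.090 and 0.20 carry the same target name and are not independent. The one at 0.20 is of the _x_ type, in which some probes can match other transcripts. It held control replicate 5 at 5.55, with the other animals between 7.32 and 9.03, and without that animal its difference was -0.40. The dimmest held CR replicate 1 at 4.93, with the other animals between 6.78 and 8.47, and without that animal its difference was 0.13.

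**Figure D3:**
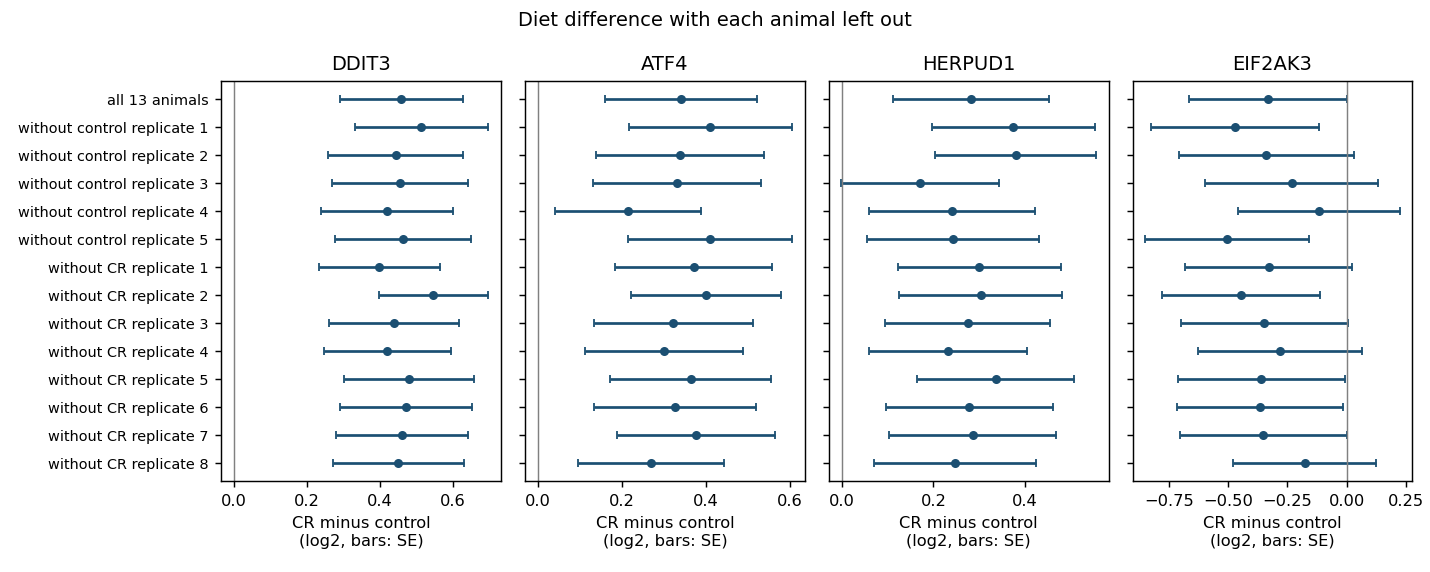
CR minus control difference (log2, horizontal axes, bars: SE from limma) for DDIT3, ATF4, HERPUD1 and EIF2AK3 with all 13 animals and with each animal left out. DDIT3 stays between 0.40 and 0.55, while ATF4 is lowest, 0.21, without control replicate 4.

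The members differed in which animals stood out. Over the 8 genes, each by its brightest probe set, control replicate 4 was the highest of 13 animals for EIF2AK3, XBP1 and PDIA4 and the lowest for ATF6, ATF4 and DDIT3. CR replicate 8 was the highest for ATF4 and the lowest for EIF2AK3 and PDIA4. Control replicate 4 also stood out in some marker lists of other cells, but not in all. Its summed marker signal was 13.97 (log2) for endothelium, where the other animals lay between 11.88 and 13.36, and 14.32 for smooth muscle and pericytes, where they lay between 11.83 and 14.19. It was 16.33 for fibroblasts, the highest of 13, and 18.14 for muscle fibre, the lowest of 13. For lymphocytes that animal was the lowest of 13, at 6.93. For adipocytes, macrophages and plasma cells it ranked 2nd from the top, and for blood 5th. Its 3' to 5' signal ratio of the actin control probe sets, a measure of RNA quality, was also the highest, at 2.41 (log2), with the other animals between 1.06 and 2.08. The same ratio for GAPDH was 0.73 in that animal, within the range of 0.30 to 0.91 over all animals. Between the diets, 5 of 5 endothelial and 2 of 2 smooth muscle and pericyte markers were lower in mean signal in CR, and 4 of 6 muscle fibre markers were higher. The summed endothelial signal ran from 12.33 to 13.97 in controls and from 11.88 to 13.05 in CR. The summed muscle fibre signal ran from 18.14 to 19.09 in controls and from 18.46 to 19.15 in CR. The part of these cells in the member differences was not tested. RNA quality was examined only by a fit with both ratios as covariates, and its part was not tested further. In that fit the brightest probe sets gave 0.42 for DDIT3, 0.33 for ATF4, 0.29 for HERPUD1 and 0.25 for XBP1 (log2). EIF2AK3 gave -0.23, ATF6 -0.20 and PDIA4 -0.15. Plasma cells secrete antibody and rely on XBP1: 3 of their 4 markers with a probe set (JCHAIN, MZB1 and TNFRSF17) were below the limit for testing, 3 of the 4 were higher in CR, and the summed signal ran from 8.42 to 9.50 in controls and from 7.98 to 9.96 in CR. Of the other marker lists, 1 of 3 adipocyte, 2 of 4 fibroblast, 1 of 4 macrophage, 1 of 3 lymphocyte and 0 of 3 blood markers were higher in CR. The 3 lymphocyte markers (CD79A, MS4A1 and NKG7) and the endothelial marker KDR were below the limit for testing.

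How regulators and targets varied together was examined for pairs of members with a known link. Of 5 such pairs 3 could be computed, each over 13 animals with a two-sided permutation test of 100000 resamples and adjustment over the 3. ATF4 correlated with DDIT3 with Pearson's r = 0.66 (permutation p = 0.0135, adjusted p = 0.0404) and Spearman's rho = 0.73 (permutation p = 0.00657, adjusted p = 0.0197). That test pools both diets, so the diet difference of DDIT3, known when the members were chosen, enters it. Without control replicate 4 and CR replicate 8, the animals farthest from the median of ATF4, r was 0.61 (permutation p = 0.0479, adjusted p = 0.144, n = 11). With the diet means removed r was 0.50 (permutation p = 0.0770, adjusted p = 0.231) and rho 0.62 (permutation p = 0.0260, adjusted p = 0.0780). Within the 8 CR animals r was 0.45 (exact permutation p = 0.264, adjusted p = 0.508). The relation thus did not pass after adjustment once the diet difference of both genes was taken out. The controls were too few for a value of their own. Leaving out 1 animal moved r between 0.58 without control replicate 4 and 0.82 without CR replicate 1. The adjusted permutation p of r was above 0.05 without any one of control replicates 1 to 4 or CR replicates 2 to 6. That of rho was above 0.05 without any one of control replicates 2 to 4 or CR replicate 2. Of the 26382 other probe sets, 5.86% had an r with ATF4 at least as high as that of DDIT3.

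HERPUD1, a known target of ATF6 and XBP1, did not pass the correlation test with either. With ATF6 r was 0.20 and rho 0.18 (permutation p = 0.499 and 0.553, adjusted p = 0.748 and 0.822), and r was 0.26 without control replicates 4 and 5, the animals farthest from the median of ATF6. Within the CR animals r was -0.19 (exact permutation p = 0.639). With the brighter XBP1 probe set r was 0.026 and rho -0.071 (permutation p = 0.933 and 0.822, adjusted p = 0.933 and 0.822). Without control replicates 4 and 5, which are farthest from the median of XBP1 too, r was -0.18, and within the CR animals it was 0.39 (exact permutation p = 0.338). Of the other probe sets, 32.1% had an r with ATF6 at least as high as that of HERPUD1, and 45.9% an r with XBP1 at least as high.

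**Figure D4:**
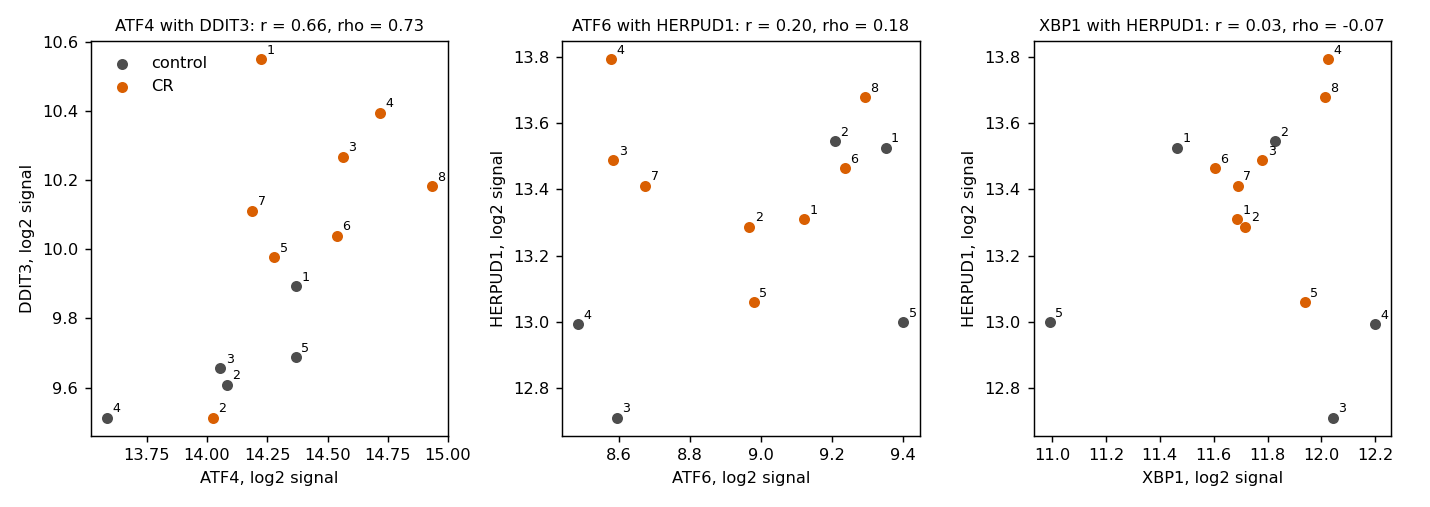
Log2 signals of ATF4 against DDIT3, ATF6 against HERPUD1 and XBP1 against HERPUD1 in the 13 animals (grey, control; orange, CR; numbers give the replicate), with Pearson's r and Spearman's rho in each title. ATF4 and DDIT3 tend to rise together, with control replicate 4 lowest in both. CR replicate 2 lies among the controls, and CR replicate 1 is highest in DDIT3 with ATF4 inside the control range. The other pairs have r of 0.20 and 0.026.

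Among 9811 other genes, the 5 whose signal most resembled that of DDIT3 over the 13 arrays were IRS2, SRRD, HSPA4, LMOD3 and CDKL3. Each gene entered by its tested probe set of highest r, which need not be its brightest. IRS2, an adaptor of the insulin receptor, had r = 0.89 and rho = 0.85, and r = 0.85 with the diet means removed. HSPA4, a nucleotide exchange factor of cytosolic HSP70 chaperones, had r = 0.87 and kept r = 0.87 with the diet means removed. LMOD3, a leiomodin of the sarcomeric thin filament, had r = 0.86, SRRD had 0.89 and CDKL3, a cyclin-dependent kinase-like protein, had 0.83. These are descriptions of a ranking over all genes, and the arrays share their scaling. The diet differences of the 5 ran from 0.28 ± 0.18 for HSPA4 to 0.63 ± 0.26 for IRS2 (SE, log2). The 5 were picked by likeness to DDIT3 with both diets pooled. The direction of their diet differences follows in part from that choice and supports nothing.

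Other genes of the pathway were taken from 5 lists, each gene by its brightest tested probe set. None passed limma's test after adjustment. The list of ATF4 and CHOP target genes had 19 of 34 genes tested, 11 with a positive and 8 with a negative difference and a median of 0.092 (log2). At an unadjusted p under 0.05, 2 of the 19 were higher and 0 lower, where 99 of 9812 genes were higher and 80 lower by the same choice of probe set. With 1 animal left out the median ran from -0.0026, with 9 positive and 10 negative, without control replicate 4 to 0.15 without control replicate 1. ATF3, a stress-induced repressor that also belongs to the immediate-early genes, had a log2 signal of 11.21, 9.13, 8.73, 9.01 and 8.77 in control replicates 1 to 5. In CR it was 11.58, 8.41, 13.24, 12.39, 11.11, 10.55, 11.34 and 9.53 for replicates 1 to 8. It thus spanned several doublings within the CR group, with control replicate 1 below 4 and above 4 of the 8 CR animals and CR replicate 2 below all others. Its difference was 1.65 ± 0.65 (SE, log2, limma's adjusted p = 0.999), and its other probe sets differed by 0.19 to 1.09. SHMT2, the mitochondrial serine hydroxymethyltransferase, differed by 0.36 ± 0.17 for its brightest probe set and by 0.52 for a dimmer one. SARS1, the cytosolic seryl-tRNA synthetase, differed by 0.29 ± 0.17. Others of the list had differences near or below 0, such as DDIT4 at -0.026, ASNS at -0.20 and PHGDH at -0.27; these 3 were picked after their values were seen.

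The list of ER chaperones and folding enzymes had 14 of 22 genes tested, 2 with a positive and 12 with a negative difference and a median of -0.16. None had an unadjusted p under 0.05. SDF2L1, an ER lumen protein of chaperone complexes, differed by -0.43 ± 0.25 (SE, log2), with values from 7.94 to 8.49 in controls and from 7.11 to 8.45 in CR. Its difference was -0.33 without CR replicate 8, and -0.10 with replicate numbers as a block in the fit. CANX, the membrane chaperone calnexin, differed by -0.24 ± 0.18 (-0.14 without control replicate 4) and PDIA5, a disulfide isomerase, by -0.31 ± 0.24 (-0.10 without control replicate 4). HSP90B1, the ER form of HSP90, was on the other side with 0.23 ± 0.23, chosen after its value was seen. Control replicate 4 was the highest of 13 animals for 9 of these 14 genes, as it was for the brightest PDIA4 probe set. Without it 9 of 14 differences were negative with a median of -0.033, without CR replicate 8 the median was -0.10, and without control replicate 4 and CR replicate 8 the count was 6 of 14 with a median of 0.0096. The marker values of control replicate 4 given above stand beside this list too, and their part in it was not tested.

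Genes of ER-associated degradation and translocation, with 18 of 24 tested, had 7 positive and 11 negative differences and a median of -0.014. The split was 4 to 14 with median centring and 13 to 5 with RNA quality ratios as covariates. Leaving out control replicate 5 gave a median of -0.066, and leaving out CR replicate 1 gave 0.014. SEC62, a translocation factor, differed by 0.30 ± 0.17 (SE, log2; 0.10 without control replicate 2), NPLOC4, a cofactor of the VCP segregase, by 0.29 ± 0.17 (0.16 without control replicate 4) and DERL1, a retrotranslocation channel protein, by -0.19 ± 0.15 (-0.11 without control replicate 3). Other probe sets differed by -0.096 to 0.15 for SEC62 and by -0.29 to 0.024 for DERL1, so neither gene kept 1 direction. Genes of eIF2 phosphorylation and exchange, with 8 of 18 tested, had 5 positive and 3 negative differences (3 and 5 with median centring) and a median of 0.011 (from -0.0026 without CR replicate 2 to 0.057 without control replicate 5), and 1 of the 8 was higher at an unadjusted p under 0.05, against the same 99 of 9812 genes. That gene, EIF2S2, the beta subunit of eIF2, differed by 0.37 ± 0.16, and dimmer probe sets of the gene by -0.40 to 0.18. EIF2S1, the alpha subunit that EIF2AK3 phosphorylates, differed by 0.39 ± 0.25 (0.17 without control replicate 4), and EIF2B3, a subunit of the exchange factor eIF2B, by 0.19 ± 0.15 (0.11 without control replicate 1). Dimmer probe sets of EIF2S1 differed by -0.051 to 0.11. Transducer partners and related factors, with 11 of 17 tested, had 5 positive and 6 negative differences and a median of -0.027. Without control replicate 4 they were 8 positive and 3 negative with a median of 0.12, and without CR replicate 4 the median was -0.065. The ER-bound factors CREB3L2 and CREB3 differed by 0.36 ± 0.26 and 0.13 ± 0.14, and ATF5, a relative of ATF4, by 0.24 ± 0.28. Other probe sets went the other way, at -0.30 for CREB3 and from -0.31 to -0.12 for ATF5. Leaving out control replicate 3 gave 0.21 for CREB3L2 and leaving out control replicate 5 gave 0.55. For ATF5, leaving out 1 animal gave values from 0.071 (control replicate 5) to 0.47 (control replicate 4).

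**Figure D5:**
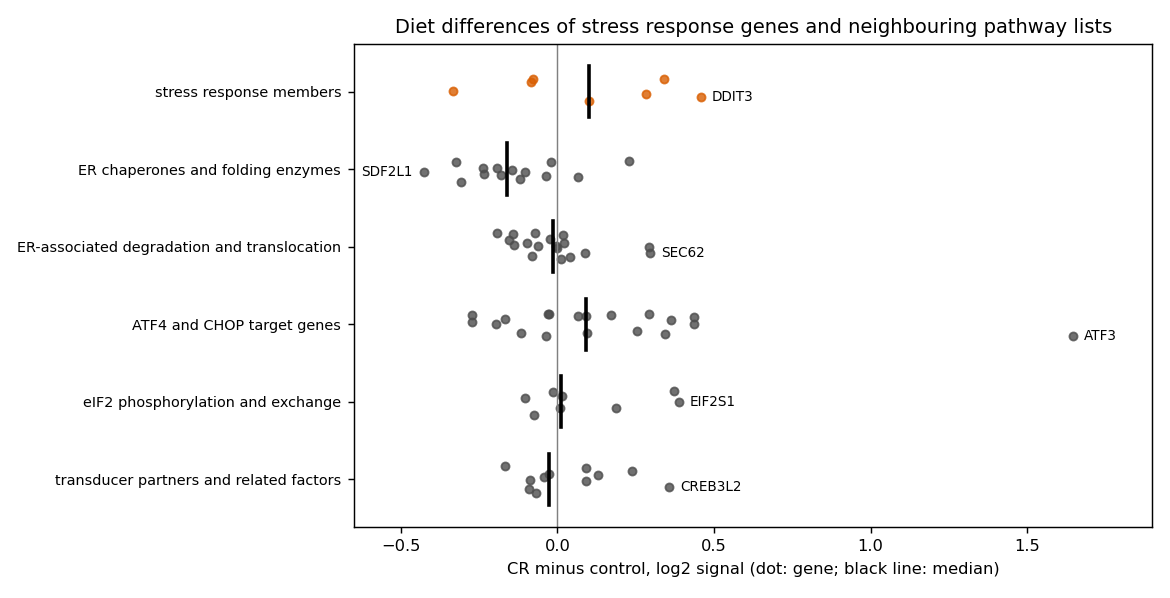
CR minus control difference (log2, horizontal axis) of each tested gene by its brightest tested probe set, for the 7 member genes (orange) and the 5 lists of other pathway genes (grey); black lines mark medians and the gene farthest from 0 is named in each row. The chaperone row lies mostly left of 0 with a median of -0.16, and ATF3 stands apart at 1.65.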

How the data were processed

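Biotin-labelled cRNA of each muscle was hybridised to a one-colour Affymetrix array, as the labels' protocols state. The authors deposited linear intensity values, 1 for each probe set in each animal. The submitters' processing notes name MAS5 for it, and no source used here gives its version. The 2% trimmed mean was 500 on each of the 13 arrays, so a shift of most transcripts in 1 animal would not be seen.

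From 52865 probe sets 99 control probe sets were removed. Signals were floored at 1 (137 values), log2 transformed, and the dimmer 50% by mean were not tested. Diets were compared with limma 3.58.1 (R 4.3.3; lmFit, then eBayes with a trend), two-sided, with Benjamini-Hochberg adjustment over the 26383 probe sets tested and a threshold of 0.05. Correlations used numpy 2.4.6. The tests were checked on simulated data. Named genes were every member, from each pathway list the 3 genes of lowest limma p, and the 5 genes most like DDIT3 by r. The members and lists were chosen with earlier results of these data known. The labels call the arrays of a diet biological replicates, 1 animal each. A planned search of promoters for stress response motifs was not run, because promoter sequences were not used here. Alternatives are given in the closing section.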

Additional observations from a re-analysis of the deposited data

Results flagged for a closer look

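A sample far from the rest of its diet group was sought for the 12 member probe sets and the 15 named pathway genes, which gave 3 such samples in 54 groups, where chance gives about 1 in 20, or 2.7. The brightest PDIA4 probe set stood at 10.02 (log2) in control replicate 4, with the next control at 9.07. The PDIA4 probe set of the _x_ type stood at 5.55 in control replicate 5, with the next control at 8.14. ATF3 stood at 11.21 in control replicate 1, with the next control at 9.13.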

How the results depend on the processing

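Under quantile normalization, median centring, an offset of 16, other filters, eBayes without the trend, array weights, RNA quality ratios as covariates, a replicate block and each animal left out, no member probe set passed limma's adjusted threshold. DDIT3, ATF4 and HERPUD1 kept a positive difference under each of them. The count of all probe sets at an unadjusted p under 0.05, 641, was 1783 without the filter, 260 with the brightest 25% and 389 with the replicate block, and ran from 507 to 1226 with 1 animal left out. The count at the adjusted threshold ran from 0 to 1 there, with 1 probe set, no member, without control replicate 1 and without control replicate 5. The count of member probe sets at an unadjusted p under 0.05 was 1, or 0 with the replicate block and from 1 to 2 with 1 animal left out. Replicate numbers were not taken as pairs in the main fit. Deviations of same-numbered arrays correlated with r from -0.20 to 0.020, which cannot show whether the animals were matched, for example by age.

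The direction turned for the brightest PDIA4 probe set with array weights (0.0010), the replicate block (0.036) and both control replicate 4 and CR replicate 8 omitted (0.24), and for EIF2AK3 in the last case (0.038). With 1 animal left out, PDIA4 ran from -0.19 to 0.13 (brightest), -0.40 to 0.47 (the _x_ type), -0.17 to -0.012 (the probe set of the same target name, with no change of sign) and -0.37 to 0.13 (dimmest), ATF6 from -0.21 to 0.020, and XBP1 from -0.076 to 0.23 (brighter) and -0.090 to 0.40. The correlation of ATF4 with DDIT3 ran from 0.58 to 0.82 with 1 animal left out. It lost its call at 0.64 after quantile normalization, 0.50 with diet means removed, 0.45 in CR alone and 0.61 without control replicate 4 and CR replicate 8, the last an alternative chosen after seeing the data. That of XBP1 with HERPUD1 ran from -0.34 to 0.24 and was -0.058 with diet means removed. That of ATF6 with HERPUD1 ran from 0.011 to 0.43, and was -0.19 in CR alone and -0.021 without both animals. The cause was not tested. Counts of list genes without single animals were added after seeing the data. The pairs of DDIT3 with PPP1R15A and of CALR with PDIA4 were not run. The median half-width of an unadjusted 95% interval was 0.55 (log2), so smaller differences may be missed.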
